A study of Mus musculus with 26 samples.

Results

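The liver makes most of the blood's complement and clotting proteins, and 38 of their genes were followed through 26 mouse liver libraries. Earlier results of these data were known when the genes were chosen. The 38 were chosen by name (the zymogens, cofactors and substrates of the clotting cascade, its anticoagulant and fibrinolytic proteins, and the components of the 3 complement pathways, with serpins left out). They are 38 of 19638 genes listed in at least 1 library, and all 38 were found and passed the filter on low counts. Libraries were made from total RNA with a TruSeq kit, and each holds between 8602526 and 11094627 estimated reads.

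The tissues came from mice labelled C57BL/6. Of the young groups, all aged 2 to 3 months, 14 libraries were Alb-Cre:Hdac3-/- livers taken 0 days (n = 3), 7 days (n = 4), 21 days (n = 4) and 50 days (n = 3) after sPH (successive PH in the labels; in liver work PH stands for partial hepatectomy), and 3 were wild-type (WT) livers. They are called 0d, 7d, 21d, 50d and WT below. Alb-Cre expresses the recombinase from the albumin promoter and so removes Hdac3 from cells that express albumin, chiefly hepatocytes. Hdac3 is a histone deacetylase that works within nuclear corepressor complexes. Of the older groups, 3 libraries were liver tumors of recipient Fah-/- mice aged 12 months, which lack the last enzyme of tyrosine breakdown, 3 were spontaneous tumors of Alb-Cre:Hdac3-/- mice aged 10 months, and 3 were non-tumor liver of the same genotype and age taken beside a tumor, here adjacent tissue. The labels do not say what the Fah-/- mice received, whether WT mice were operated on, what 0 days means relative to the operations, or whether replicates are separate animals, so p-values measure the spread between these libraries.

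Some facts about the libraries touch the results below. Hdac3 itself was not lower in the livers labelled Hdac3-/-, at 43.8 to 49.7 CPM in 0d livers and 31.5 to 36.6 CPM in WT livers, so the genotype rests on the labels, and the transcript count of a whole gene does not show whether exons are missing. The tumors labelled Fah-/- held 311 to 509 CPM of Fah, near the 283 to 482 CPM of the Hdac3-/- tumors, against 879 to 1133 CPM in adjacent tissue. The Fah transcript therefore does not set the tumors labelled Fah-/- apart from the others, and that genotype too rests on the labels; they are called Fah-/- tumors here after their label. Summed over 8 hepatocyte markers, the level was 69039 to 83134 CPM in 0d livers, 62328 to 153511 CPM in 7d livers, 83127 to 97806 CPM in 21d livers, 98881 to 109413 CPM in 50d livers and 168032 to 177161 CPM in WT livers, and none of the 8 was at 0 in any group. In whole tissue, fewer cells of a type and less RNA per cell cannot be told apart. Summed over 4 Y-linked genes, the level was 40.9 to 93.1 CPM in all 7d, 21d and 50d libraries, but at most 0.261 CPM in every 0d library and 0.114 CPM in every WT library. In the older set it was at most 0.166 CPM in Fah-/- tumors, 40.9 CPM in replicate 3 and near 0 in the other Hdac3-/- tumors, and 27.1 CPM in replicate 2 and near 0 in the other adjacent libraries. The day after sPH and the presence of Y-linked transcripts therefore cannot be told apart in comparisons of 7d, 21d or 50d livers with 0d or WT livers. Among the young groups, beta-globin transcripts differed along the same split. Hbb-bs averaged 171 CPM in WT and 194 CPM in 0d livers, against 20.3 ± 37.6, 0.332 and 0.864 CPM in 7d, 21d and 50d livers. Hbb-bt averaged 39.7 and 14.5 CPM, against 0.262, 0.2 and 0 CPM. Hba-a1, an alpha-globin gene, averaged 240 and 241 CPM, against 167, 182 and 169 CPM. In the older groups Hbb-bs averaged 0.166 CPM in Fah-/- tumors, 0.208 CPM in Hdac3-/- tumors and 1.29 CPM in adjacent tissue. Hbb-bt was at 0 CPM in all of them, and Hba-a1 averaged 415, 476 and 236 CPM. WT and 0d livers thus stood above every other group in beta-globin, also above older libraries without Y-linked transcripts. The cause was not tested, and among the young groups this difference too cannot be told apart from the day after sPH.

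Clotting is a chain of serine proteases that ends with thrombin, which cuts fibrinogen into fibrin, and plasmin later dissolves the fibrin. Complement is a second chain: the classical and lectin pathways and the alternative pathway each split C3, and the terminal components C5 to C9 then assemble into a pore in the target membrane. Hepatocytes secrete nearly all of these proteins into plasma, and several need a vitamin K dependent modification before they leave the cell. Fibrinogen and C3 are acute phase proteins whose synthesis responds to inflammatory signals, interleukin-6 among them.

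The results turn most on fibrinogen (Fga, Fgb, Fgg), on the C8 chains (C8a, C8b) and on C3. Fibrinogen and the C8 chains fell and rose in the same comparisons of young groups, but not in tumors. There C8a and C8b were called lower than in adjacent tissue, and neither the fibrinogen chains nor C3 were called. The regions of 250 bases ahead of the start sites of these genes are printed here to be read side by side. They are from RefSeq on build GRCm38.p6, the same assembly as mm10, and run 5′ to 3′ on the strand of the gene. The Fga region is chr3:83025903-83026152 (plus strand), the Fgb region chr3:83049864-83050113 (minus strand) and the Fgg region chr3:83007474-83007723 (plus strand). The C8a region is chr4:104876399-104876648 (minus strand), the C8b region chr4:104766067-104766316 (plus strand) and the C3 region chr17:57228137-57228386 (minus strand). The listed span of C8a ends at base 104876487, so part of its region lies within the gene and not ahead of it. The regions of the other genes lie ahead of their listed spans. Capitals mark matches, on either strand, to TTGCNNAA (a form of the site bound by C/EBP factors). They also mark, on either strand, CTGGGAA (the interleukin-6 response element of acute phase genes) and TTCNNNGAA (the STAT palindrome).
Fga: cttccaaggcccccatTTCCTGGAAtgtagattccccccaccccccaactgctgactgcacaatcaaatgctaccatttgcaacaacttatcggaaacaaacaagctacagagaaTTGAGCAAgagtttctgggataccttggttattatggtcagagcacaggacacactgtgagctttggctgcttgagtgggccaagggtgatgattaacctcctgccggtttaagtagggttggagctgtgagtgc
Fgb: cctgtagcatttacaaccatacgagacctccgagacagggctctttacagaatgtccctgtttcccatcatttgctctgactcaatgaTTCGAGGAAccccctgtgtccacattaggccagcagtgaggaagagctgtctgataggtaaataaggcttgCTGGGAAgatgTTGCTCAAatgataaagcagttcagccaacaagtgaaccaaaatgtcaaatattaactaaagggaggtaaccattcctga
Fgg: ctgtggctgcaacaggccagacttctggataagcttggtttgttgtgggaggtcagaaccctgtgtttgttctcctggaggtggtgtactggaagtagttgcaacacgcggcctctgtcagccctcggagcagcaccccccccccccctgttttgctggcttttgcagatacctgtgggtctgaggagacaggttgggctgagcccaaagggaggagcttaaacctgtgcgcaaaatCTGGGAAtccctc
C8a: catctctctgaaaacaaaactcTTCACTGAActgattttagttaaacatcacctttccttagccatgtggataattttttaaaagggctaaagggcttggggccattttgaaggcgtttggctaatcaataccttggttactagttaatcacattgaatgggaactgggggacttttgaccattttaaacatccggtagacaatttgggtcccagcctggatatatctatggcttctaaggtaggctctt
C8b: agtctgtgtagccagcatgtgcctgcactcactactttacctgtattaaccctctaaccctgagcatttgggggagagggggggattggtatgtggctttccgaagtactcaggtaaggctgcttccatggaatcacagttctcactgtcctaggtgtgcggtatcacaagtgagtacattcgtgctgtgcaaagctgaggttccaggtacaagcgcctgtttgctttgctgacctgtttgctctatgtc
C3: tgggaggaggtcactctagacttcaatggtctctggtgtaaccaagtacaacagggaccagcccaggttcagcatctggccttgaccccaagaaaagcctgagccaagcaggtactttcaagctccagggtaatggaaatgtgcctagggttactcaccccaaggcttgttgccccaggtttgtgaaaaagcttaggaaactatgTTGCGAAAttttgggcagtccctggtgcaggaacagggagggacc

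A region was available for 30 of the 38 genes and for 32851 mouse promoters in all, and each was searched on both strands. The C/EBP motif TTGCNNAA was in 9 of the 30 (30.0%), namely C1s1, C3, C9, F11, F9, Fga, Fgb, Hrg and Klkb1, and in 9.56% of all promoters. The STAT palindrome was in 6 of the 30 (20.0%), against 7.02% of all, and the interleukin-6 element CTGGGAA in 5 (C1ra, F9, Fgb, Fgg and Masp2; 16.7%), against 9.1% of all. In F9 and Masp2 these last motifs overlap. CAAAGTCCA, a site of HNF4, was in 0 of the 30 and in 0.38% of all, and TATAAA was in 3 (Hc, Klkb1 and Vtn; 10.0%), against 12.37%. Matches of letters are a description of these windows and do not show binding.

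Per gene length, on the authors' FPKM scale, the 38 genes span a wide range in WT liver. Fgb averaged 3950 ± 1027 FPKM (SD, n = 3), Fgg 3277 ± 574 FPKM and Fga 3202 ± 644 FPKM, and C3, the protein on which all complement pathways meet, averaged 2843 ± 441 FPKM. These 4 were the most abundant, and their ranges overlapped. Vtn (vitronectin, which binds the terminal complex and stops it from entering membranes) followed at 2059 ± 450 FPKM. The lowest were C6, a terminal component, at 9.54 FPKM, Pros1 (protein S) at 14.7 FPKM and Masp1, a lectin pathway protease, at 19.1 FPKM. C3 ranked first in 0d livers and in adjacent tissue, and Fgb ranked first in the other 6 groups. C8b ranked 27th of 38 in WT livers and last in 0d livers and in both kinds of tumor.

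**Figure D1:**
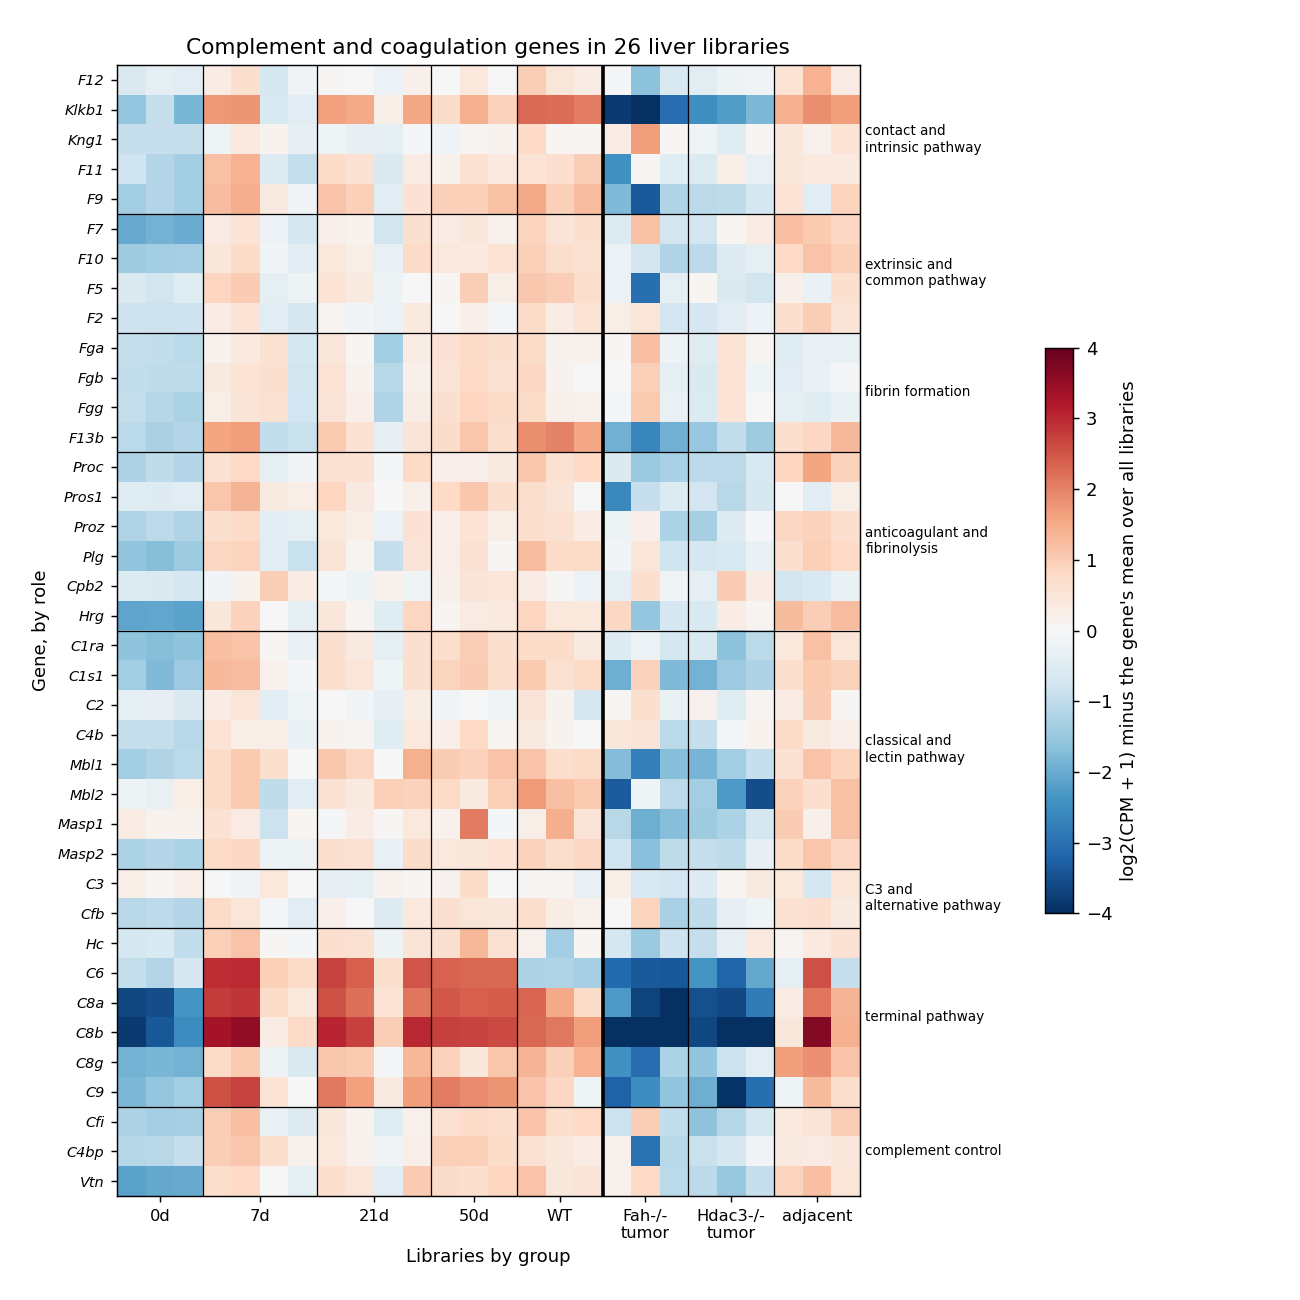
Levels of the 38 genes (rows, by role) in 26 libraries (columns, by group), as log2(CPM + 1) minus each gene's mean over all libraries; red is above and blue below that mean. The 0d libraries and both kinds of tumor are blue for most genes, C3 is pale throughout, and C8a and C8b show the strongest contrast.

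At 0d nearly all of the complement and clotting genes were lower than in WT liver. Of the 38, 33 fell and 5 did not pass the test (C2, Masp1, C3, Hc and C6), with a background of 37.3% of 13617 genes called in either direction and 19.0% called lower (edgeR's quasi-likelihood test, Benjamini-Hochberg adjusted p under 0.05). The median log2 fold change was -1.78, a level 3.43-fold lower, while the median of all genes tested was 0.00. For 33 of the 38 the highest 0d library lay below the lowest WT library, which held for 29.0% of all genes. Summed, the 38 genes made 33271 to 36083 CPM in 0d livers and 57473 to 81636 CPM in WT livers. The median of the 8 hepatocyte markers fell by 1.18 on the same log2 scale, with 6 of 8 called lower, and its part in the result was not tested.

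The 2 largest falls were those of C8b and C8a, genes of the C8 complex, the terminal component that anchors the pore in the membrane. C8b, its beta chain, had 3.31, 4.78 and 9.57 CPM in 0d livers, against 298, 259.7 and 190.4 CPM in WT livers (log2 fold change -5.40 ± 0.83, adjusted p = 0.000246). C8a, its alpha chain, had 12.0, 12.95 and 29.8 CPM in 0d livers, against 815, 460.5 and 268 CPM in WT livers (-4.81 ± 0.73, adjusted p = 0.000213). In both genes every WT library lay well above the highest 0d library. C8g, the gamma chain, a lipocalin, averaged 24.3 ± 0.577 CPM in 0d livers and 219 ± 35.1 CPM in WT livers (-3.17 ± 0.41, adjusted p = 7.69e-05), and C9, which polymerises into the wall of the pore, averaged 68.3 ± 10.9 CPM in 0d livers and 330.2 ± 137 CPM in WT livers (-2.27 ± 0.60, adjusted p = 0.0082). C9 ranged from 179.9 to 449 CPM among WT livers.

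The terminal pathway was uneven. Hc, the mouse gene of C5, had 353, 381 and 296 CPM in 0d livers and 647, 224 and 616 CPM in WT livers (-0.53 ± 0.39, adjusted p = 0.302); WT replicate 2 was far below the other 2 WT libraries, so the groups overlap. C6, the component that joins C5b, had 36.7, 31.3 and 44.6 CPM in 0d livers and 29.7, 30.3 and 28.0 CPM in WT livers (0.36 ± 0.54, adjusted p = 0.627). Each 0d library of C6 lay above every WT library, but the call was not passed. Thus 4 of the 6 terminal genes fell, with a median log2 fold change of -2.72 over the 6.

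**Figure D2:**
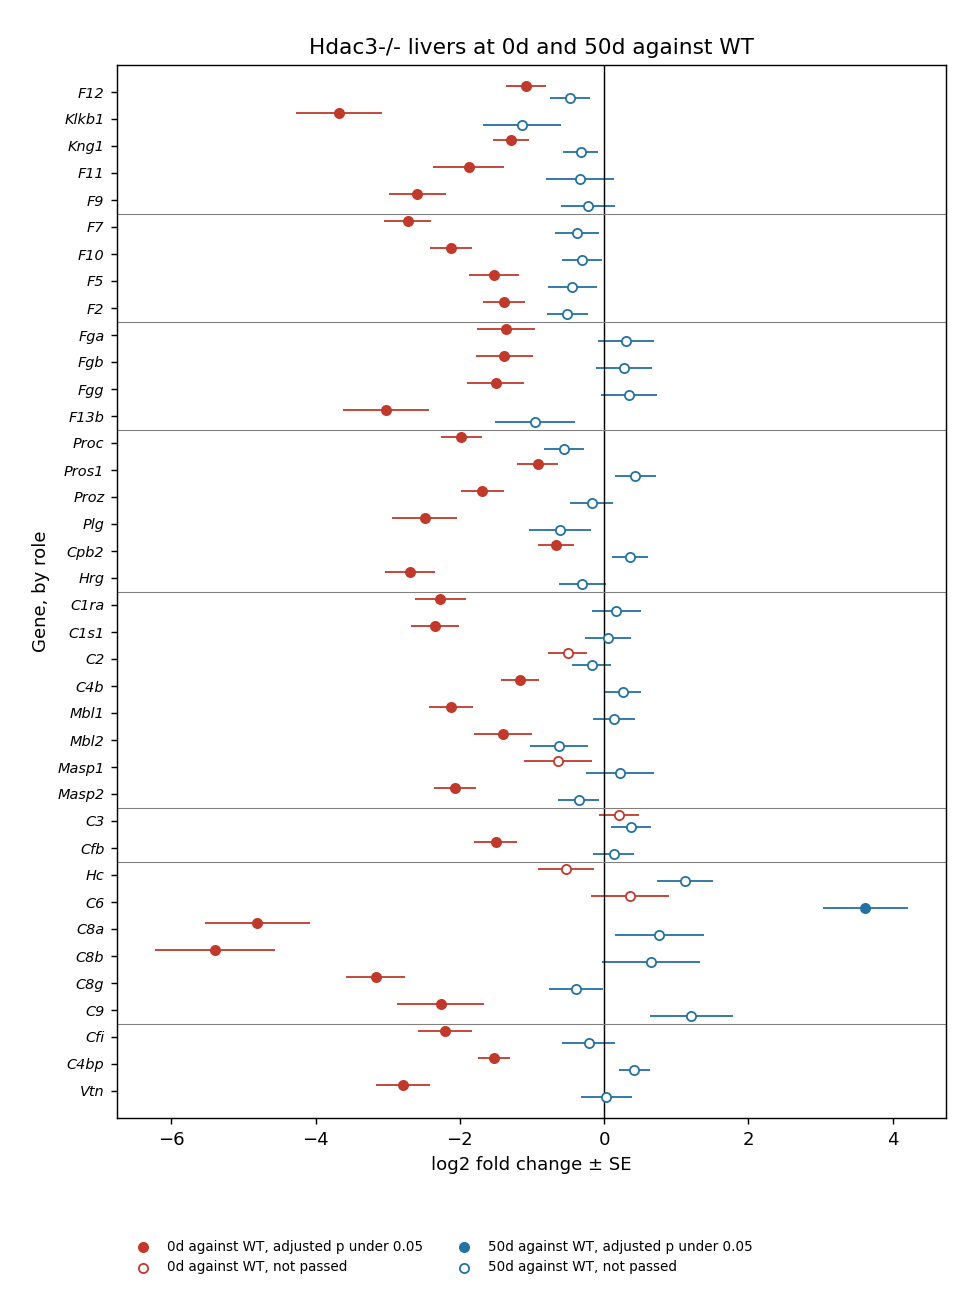
log2 fold change ± SE (x axis) of each gene (y axis, by role) in 0d livers and in 50d livers, each against WT livers; filled points passed an adjusted p under 0.05. The 0d values lie left of 0 for 36 of 38 genes, with C8b at -5.40, while the 50d values lie on both sides of 0 and C6 alone is called, at 3.62.

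In the contact and intrinsic pathway, which starts clotting on charged surfaces, all 5 genes fell. Klkb1, the gene of plasma prekallikrein, had 11.03, 17.04 and 8.72 CPM in 0d livers, against 168, 162 and 143 CPM in WT livers (-3.68 ± 0.60, adjusted p = 0.000348), with no overlap. F9, the gene of the protease missing in haemophilia B, averaged 34.1 ± 2.96 CPM in 0d livers and 206 ± 40.8 CPM in WT livers (-2.59 ± 0.40, adjusted p = 0.000237). F11, which activates factor IX, averaged 22.8 ± 4.84 CPM in 0d livers and 83.7 ± 13.04 CPM in WT livers (-1.87 ± 0.49). F12, the starter protease, averaged 258 ± 18.7 CPM in 0d livers and 546 ± 139.8 CPM in WT livers (-1.08 ± 0.28). Kng1, the gene of kininogen, the cofactor that also yields bradykinin, averaged 1512 ± 15.2 CPM in 0d livers and 3721 ± 1136 CPM in WT livers (-1.29 ± 0.25); Kng1 has a close copy, Kng2, so the split of reads between them is uncertain.

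All 4 genes of the extrinsic and common pathway fell. F7, the protease that tissue factor activates, averaged 18.1 ± 0.680 CPM in 0d livers and 119.6 ± 16.7 CPM in WT livers (-2.72 ± 0.33, adjusted p = 5.11e-05). F10, the protease that makes thrombin, averaged 170.0 ± 6.01 CPM in 0d livers and 745 ± 99.1 CPM in WT livers (-2.13 ± 0.29). F5, its cofactor, averaged 162 ± 15.0 CPM in 0d livers and 469 ± 60.2 CPM in WT livers (-1.53 ± 0.35). F2, the gene of prothrombin, averaged 1009 ± 15.8 CPM in 0d livers and 2654 ± 431 CPM in WT livers (-1.39 ± 0.29). The 7 genes whose proteins need vitamin K (F2, F7, F9, F10, Proc, Pros1 and Proz) all fell, with a median of -1.98.

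The 4 genes of fibrin formation also fell. Fga had 3834, 3805 and 3552 CPM in 0d livers, against 12459, 8175 and 8245 CPM in WT livers (-1.36 ± 0.40, adjusted p = 0.014). Fgb had 2591, 2543 and 2531 CPM in 0d livers, against 9099, 5700.1 and 5259 CPM in WT livers (-1.38 ± 0.39, adjusted p = 0.0121). Fgg had 2130.0, 1866 and 1697 CPM in 0d livers, against 6824, 4702 and 4652 CPM in WT livers (-1.50 ± 0.39, adjusted p = 0.0076). The 0d libraries of each chain were close together and all below WT, where replicate 1 was the highest for each. F13b, the carrier subunit of the enzyme that cross-links fibrin, fell further, to 26.5 ± 2.09 CPM in 0d livers, against 217 ± 31.3 CPM in WT livers (-3.03 ± 0.59, adjusted p = 0.00124). Without WT replicate 1 the falls of Fga (adjusted p = 0.0608) and Fgb (adjusted p = 0.0611) did not pass.

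All 6 genes of the anticoagulant and fibrinolytic group fell, including Cpb2, whose protein slows fibrinolysis. Plg, the gene of plasminogen, the precursor of the fibrin-dissolving protease, averaged 769 ± 73.1 CPM in 0d livers and 4323 ± 859 CPM in WT livers (-2.49 ± 0.45, adjusted p = 0.000736). Hrg, histidine-rich glycoprotein, which binds plasminogen and heparin, averaged 312 ± 7.24 CPM in 0d livers and 2022 ± 373 CPM in WT livers (-2.69 ± 0.35). Proc, the gene of the anticoagulant protease protein C, averaged 129 ± 9.18 CPM in 0d livers and 510.4 ± 84.7 CPM in WT livers (-1.98 ± 0.29), and Proz, a cofactor that targets factor X for inhibition, averaged 110.0 ± 7.05 CPM in 0d livers and 355 ± 48.1 CPM in WT livers (-1.69 ± 0.30). The smallest falls were those of Pros1, the cofactor of protein C, at 27.3 ± 0.937 CPM in 0d livers and 51.9 ± 12.8 CPM in WT livers (-0.92 ± 0.28, adjusted p = 0.0184), and Cpb2, a carboxypeptidase, at 324 ± 15.4 CPM in 0d livers and 516 ± 97.8 CPM in WT livers (-0.67 ± 0.24, adjusted p = 0.0417). Pros1 did not pass without WT replicate 1 (adjusted p = 0.0793) or without 0d replicate 1 (0.0521), and Cpb2 lost its call when WT replicate 1, WT replicate 2 or any single 0d library was left out (adjusted p 0.0709 to 0.155) and when levels were scaled by library totals (adjusted p = 0.315).

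Of the 8 classical and lectin pathway genes, 6 fell. C1s1 and C1ra, the proteases of the C1 complex, averaged 103 ± 14.7 and 101.0 ± 3.64 CPM in 0d livers, against 526 ± 84.5 and 488 ± 73.2 CPM in WT livers (-2.35 ± 0.33 and -2.27 ± 0.36). Each has a near-identical copy, C1s2 and C1rb, as has C4b in C4a, so their counts are uncertain. Mbl1, a mannose-binding lectin, averaged 39.1 ± 4.43 CPM in 0d livers and 170.2 ± 30.6 CPM in WT livers (-2.12 ± 0.31), and Mbl2, the second, 179 ± 38.6 CPM in 0d livers and 475 ± 120.3 CPM in WT livers (-1.40 ± 0.41, adjusted p = 0.0575 without WT replicate 1). Masp2, the lectin pathway protease that cuts C4 and C2, averaged 67.3 ± 3.14 CPM in 0d livers and 283 ± 23.3 CPM in WT livers (-2.07 ± 0.29), and C4b 879 ± 59.4 CPM in 0d livers and 1977 ± 263 CPM in WT livers (-1.17 ± 0.27). Masp1 averaged 35.6 ± 2.76 CPM in 0d livers and 55.7 ± 26.5 CPM in WT livers (-0.64 ± 0.47, adjusted p = 0.301), and C2, which pairs with C4b in the convertase, 112 ± 9.46 CPM in 0d livers and 159.8 ± 62.7 CPM in WT livers (-0.50 ± 0.27, adjusted p = 0.157), neither passing the test.

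C3 did not pass the test, while Cfb fell. C3 had 19174, 16663 and 18656 CPM in 0d livers, against 16832, 17313 and 13309 CPM in WT livers (0.20 ± 0.28, adjusted p = 0.588), and the groups overlap. Cfb, the protease of the alternative pathway convertase, averaged 539 ± 25.1 CPM in 0d livers and 1534 ± 300.2 CPM in WT livers (-1.50 ± 0.30, adjusted p = 0.00125). The 3 control proteins fell: Cfi, the protease that inactivates C3b and C4b, averaged 196 ± 8.18 CPM in 0d livers and 907 ± 145 CPM in WT livers (-2.20 ± 0.38). C4bp, its cofactor for C4b, averaged 183 ± 15.6 CPM in 0d livers and 525 ± 57.0 CPM in WT livers (-1.52 ± 0.22). Vtn averaged 564 ± 31.1 CPM in 0d livers and 3910.3 ± 1081 CPM in WT livers (-2.79 ± 0.38, adjusted p = 0.000102).

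By 7 days after sPH most of the genes were higher than at 0d, and they stayed so at 21 and 50 days. Against 0d livers, 33 of 38 rose in 7d livers (background 26.6% called, 14.7% higher), 31 in 21d livers (31.6% called, 17.6% higher) and 33 in 50d livers (25.8% called, 14.4% higher), all by edgeR's quasi-likelihood test. The median log2 fold changes were 1.61, 1.45 and 1.77. F12, C2, Mbl2, Masp1 and C3 did not pass at any of the 3 times, and F5 and Cpb2 did not at 21d. These 3 comparisons share the 0d libraries, as does the comparison of 0d with WT, so the same 0d values enter all 4. When libraries were left out one at a time, 7 of the calls at 7d, 9 at 21d and 4 at 50d were lost in at least 1 case. The summed stellate and matrix markers were 81.4 to 473 CPM in 7d livers, 82.7 to 533 CPM in 21d livers and 192 to 338 CPM in 50d livers, against 512 to 915 CPM in 0d livers, with 4, 5 and 1 of 8 called lower at the 3 times. The summed neutrophil markers were 111 to 1629 CPM in 7d livers, 27.2 to 95.1 CPM in 21d livers and 59.4 to 138 CPM in 50d livers, against 38.8 to 70.8 CPM in 0d livers, with 7, 0 and 0 of 7 called higher by edgeR. Of the 8 hepatocyte markers 2, 3 and 2 were called higher. Their part in the result was not tested.

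Of the role groups the terminal pathway had the largest median rises, with 6 of 6 genes higher at each time and medians of 3.34, 3.17 and 3.37. C8b had 605, 707, 74.2 and 102 CPM in 7d livers, 500.0, 401, 119 and 486 CPM in 21d livers and 401, 392.1 and 380.4 CPM in 50d livers. Against its 0d level this was a log2 fold change of 5.97 ± 0.84, adjusted p = 0.000384 at 7d, 5.99 ± 0.84, adjusted p = 0.00031 at 21d and 6.05 ± 0.86, adjusted p = 0.000265 at 50d. C8a had 1112, 1166, 269 and 217 CPM in 7d livers, 939, 737, 233 and 713 CPM in 21d livers and 904, 848 and 871 CPM in 50d livers. Every later library of both chains lay above every 0d library, and replicates 3 and 4 of 7d and replicate 3 of 21d were the lowest of their groups. C8a rose by 5.24 ± 0.73, adjusted p = 0.000358 at 7d, 5.16 ± 0.73, adjusted p = 0.000311 at 21d and 5.58 ± 0.76, adjusted p = 0.000224 at 50d. C9 had 1197, 1326, 294 and 204 CPM in 7d livers, 873, 632, 263 and 648 CPM in 21d livers and 836, 758 and 697 CPM in 50d livers, against 57.3, 68.6 and 79.2 CPM in 0d livers. The log2 fold changes of C9 were 3.46 ± 0.62, adjusted p = 0.00138 at 7d, 3.14 ± 0.61, adjusted p = 0.0016 at 21d and 3.48 ± 0.63, adjusted p = 0.00136 at 50d.

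C6 was low in 0d and in WT livers and was higher at every later time. It had 560.2, 576, 139 and 122 CPM in 7d livers, 474, 385, 112 and 418 CPM in 21d livers and 371, 355 and 359.9 CPM in 50d livers, against 36.7, 31.3 and 44.6 CPM in 0d livers and 29.7, 30.3 and 28.0 CPM in WT livers. All later libraries stood above all 0d and WT libraries. Against 0d livers the log2 fold change was 3.21 ± 0.56, adjusted p = 0.00125 at 7d, 3.20 ± 0.56, adjusted p = 0.000973 at 21d and 3.26 ± 0.58, adjusted p = 0.00121 at 50d. Against WT livers it was 3.57 ± 0.57, adjusted p = 0.0014 at 7d and 3.62 ± 0.59, adjusted p = 0.00112 at 50d. Among the young libraries those with high C6 are those with Y-linked transcripts and with lower Hbb-bs and Hbb-bt. The time after sPH and these differences between the libraries therefore cannot be told apart.

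**Figure D3:**
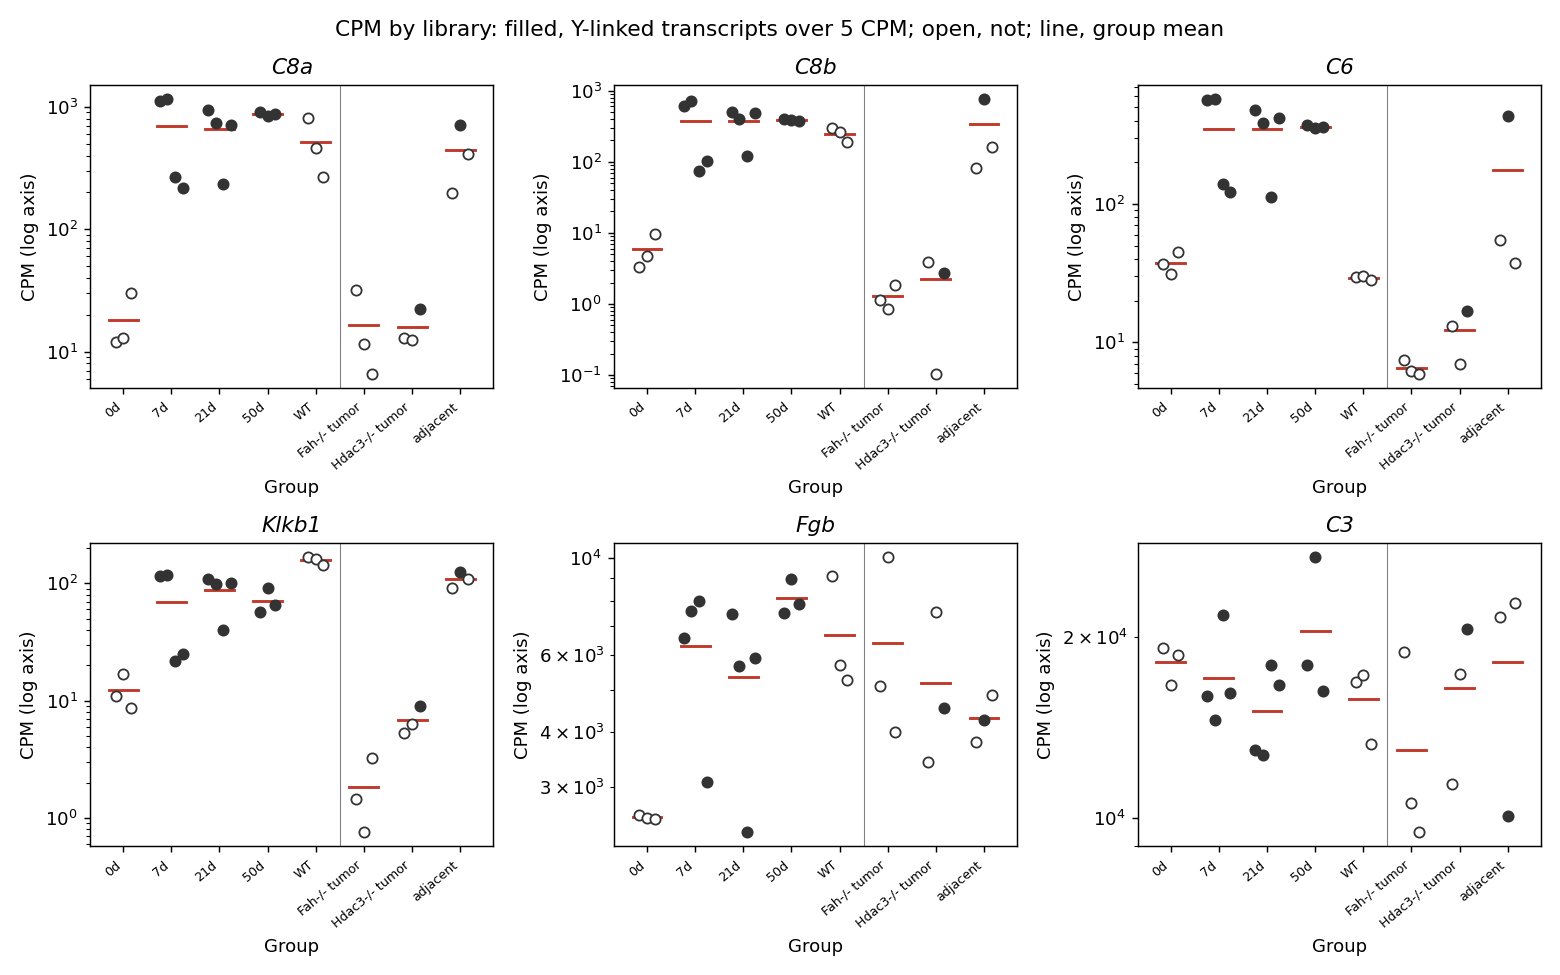
CPM on a log axis of C8a, C8b, C6, Klkb1, Fgb and C3 in each library by group; filled points are libraries with more than 5 CPM summed over 4 Y-linked genes, open points have less, and red lines are group means. C8b is at most 9.57 CPM in 0d livers and 3.90 CPM in both kinds of tumor, and C3 lies between 9478 and 27218 CPM in all libraries. C6 is at most 55.0 CPM in every open library, and it is also low, at 16.7 CPM, in the filled Hdac3-/- tumor.

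The 3 fibrinogen chains rose at all 3 times over 0d livers. Fga had 8196, 9783, 11360.5 and 4602 CPM in 7d livers, 10275, 7948, 2948 and 9242 CPM in 21d livers and 11228, 12869 and 11609 CPM in 50d livers, and rose over 0d by 1.18 ± 0.38, adjusted p = 0.0303 at 7d, 1.02 ± 0.38, adjusted p = 0.0479 at 21d and 1.67 ± 0.40, adjusted p = 0.00736 at 50d. Fgb had 6582, 7585, 7993 and 3084 CPM in 7d livers, 7463, 5675, 2366 and 5907 CPM in 21d livers and 7513, 8981 and 7853 CPM in 50d livers, and rose by 1.30 ± 0.37, 1.06 ± 0.37 and 1.66 ± 0.40 at the 3 times. Fgg had 4857, 5890.0, 6204 and 2399 CPM in 7d livers, 5886, 4672, 1790.0 and 5045 CPM in 21d livers and 6362, 7398 and 6825 CPM in 50d livers, and rose by 1.35 ± 0.37, 1.19 ± 0.37 and 1.85 ± 0.40. Replicate 4 of 7d and replicate 3 of 21d were lowest for all 3 chains, and 21d replicate 3 lay below all 0d libraries for Fga and Fgb and within their range for Fgg. The calls at 7d and 21d were fragile: without any one 0d library Fga and Fgb did not pass at 7d (adjusted p 0.0554 to 0.0865) and no chain passed at 21d (0.0599 to 0.127), where 21d replicates 1, 2 and 4 also decided calls.

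Among the other clotting genes, the vitamin K dependent set rose in full, 7 of 7 at each time, with medians of 1.44, 1.64 and 1.51. That full count rests on single libraries: F2 did not pass without any one 0d library at 7d, 21d or 50d (adjusted p 0.0598 to 0.0854), nor without 7d replicate 1 or 2, 21d replicate 4 or any one 50d library, and Pros1 did not at 21d without any one 0d library or 21d replicate 1 (adjusted p 0.0555 to 0.0732). F9 averaged 156 ± 73.7 CPM at 7d, 136 ± 55.9 CPM at 21d and 177 ± 15.7 CPM at 50d, with log2 fold changes over 0d of 2.19 ± 0.38, 2.00 ± 0.37 and 2.37 ± 0.39. Klkb1 averaged 69.8 ± 53.7 CPM at 7d, 87.0 ± 31.7 CPM at 21d and 71.4 ± 18.0 CPM at 50d, with 2.50 ± 0.56, 2.82 ± 0.56 and 2.54 ± 0.57. Hrg averaged 1705 ± 658, 1682 ± 627 and 1637 ± 154 CPM at the 3 times, and Plg 2753 ± 1532, 2516 ± 961 and 2839.6 ± 595 CPM. Hc, unlike at 0d against WT, passed against 0d at all 3 times, with 1.37 ± 0.38, 1.19 ± 0.38 and 1.65 ± 0.40. It did not pass at 7d without 0d replicate 1 (adjusted p = 0.054) or 3 (adjusted p = 0.0593), nor at 21d without any one 0d library or without 21d replicate 1, 2 or 4 (adjusted p 0.0529 to 0.0908). C3 had 15958, 14585, 21819.6 and 16136 CPM in 7d livers, 12988, 12741, 17968 and 16678 CPM in 21d livers and 17986, 27218 and 16294 CPM in 50d livers, and its changes from 0d were -0.09 ± 0.26, adjusted p = 0.83, -0.27 ± 0.26, adjusted p = 0.439 and 0.17 ± 0.28, adjusted p = 0.686, with overlapping ranges.

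Against WT livers, C6 was the single gene called in 7d livers (1 of 38, background 12.8% called, 8.14% higher and 4.70% lower) and in 50d livers (1 of 38, background 11.2% called, 6.45% higher and 4.79% lower). The median log2 fold change was -0.24 at 7d and -0.07 at 50d. Klkb1 had the lowest value at both times, -1.18 ± 0.50, adjusted p = 0.13 at 7d and -1.14 ± 0.54, adjusted p = 0.185 at 50d, with 57.2, 91.7 and 65.4 CPM in 50d livers and 168, 162 and 143 CPM in WT livers. Fga, Fgb and Fgg at 50d differed from WT by 0.31 ± 0.39, 0.28 ± 0.39 and 0.35 ± 0.38, and C3 by 0.37 ± 0.28; at 7d the values were -0.18 ± 0.36, -0.08 ± 0.36, -0.16 ± 0.36 and 0.12 ± 0.26, none passing. For 10 genes the 50d libraries lay below all WT libraries (17.5% of all genes do) and for 6 above (18.1% of all genes). The 7d count rose to 9 when 7d replicate 2 was left out and was 5 by voom, and the 50d count was 5 when only those 2 groups were fitted. A call not passed does not show that a level had returned to that of WT.

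No gene of the 38 was called between 50d and 7d livers: 0 of 38 passed edgeR's quasi-likelihood test (background 0.441% of genes called), 1 had an unadjusted p under 0.05, and DESeq2 and voom also called 0. The median log2 fold change was 0.12. Fga, Fgb, Fgg and C3 differed by 0.49 ± 0.36, 0.36 ± 0.36, 0.50 ± 0.36 and 0.26 ± 0.26. The spread within 7d livers was wide: summed over the 38 genes, 7d libraries held 67046, 72597, 66704 and 41354 CPM, 21d libraries 63377, 54012, 40228 and 66147 CPM and 50d libraries 69524, 86454 and 69321 CPM. The 2 lowest 7d libraries, replicates 3 and 4, also had C8b, C6, Klkb1 and F13b well below replicates 1 and 2, while fibrinogen in replicate 3 was as high as in replicates 1 and 2. Replicate 3 had the highest summed neutrophil markers of the study, at 1629 CPM, against 111 CPM in the lowest 7d library, and the part of this in the result was not tested.

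Ratios between chains of one protein were narrow for fibrinogen and wide for C8. The ratio of Fga to Fgb, on the FPKM scale, lay between 0.688 and 0.964 in all 26 libraries, and that of Fgg to Fgb between 0.688 and 0.936. The ratio of C8a to C8g was 0.137 to 0.332 in 0d livers, 1.23 to 1.90 in 50d livers and 0.309 to 0.974 in WT livers. In the tumors it was 0.0489 to 0.508 in Fah-/- tumors and 0.0688 to 0.122 in Hdac3-/- tumors, against 0.188 to 0.614 in adjacent tissue. The ratio of Fgb to C8b was 378 to 1123 in 0d livers and 31.4 to 43.7 in WT livers. These are descriptions over libraries, and genes of one library share its depth.

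**Figure D4:**
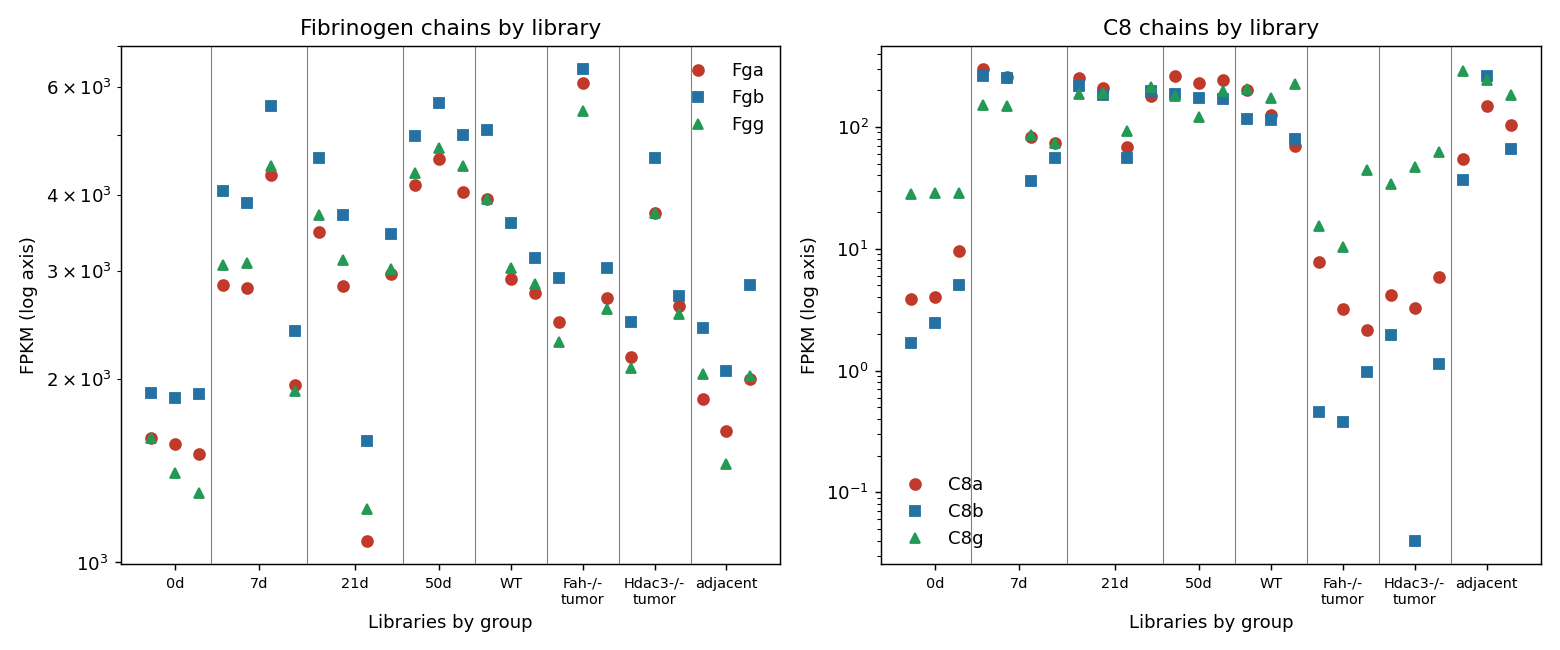
FPKM on a log axis of the fibrinogen chains (left) and the C8 chains (right) in each of 26 libraries, by group. The 3 fibrinogen chains keep within a narrow band of each other. C8g stays above C8a and C8b in 0d livers and in tumors, and also in WT livers. The ratio of C8a to C8g was 0.137 to 0.332 in 0d livers and 0.309 to 0.974 in WT livers.

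Many of the genes lie side by side. Within 100000 bases of each other on the mm10 assembly lie 9 neighbouring pairs made of 16 genes, among them Fgg, Fga and Fgb on chromosome 3 (gaps of 11097 and 8619 bases), C8b and C8a on chromosome 4 (11131 bases), C1ra and C1s1 on chromosome 6 (6904 bases), F7, F10 and Proz on chromosome 8 (1499 and 3908 bases), and F11 and Klkb1 also on chromosome 8 (4633 bases). At 0d both members fell in each of these pairs. Cfb and C2, 88 bases apart on chromosome 17, differed: Cfb fell by 1.50 ± 0.30 on the log2 scale and C2 had -0.50 ± 0.27, which did not pass. The labels do not say that counting used strand, so reads near the ends of such close neighbours are uncertain.

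In Hdac3-/- tumors, most of the genes called lower were complement genes. Against adjacent tissue 15 of 38 genes fell and 23 did not pass (background 10.3% of 13187 genes called, 4.98% lower), with a median log2 fold change of -1.35. The 15 were 5 of 6 terminal genes (C6, C8a, C8b, C8g and C9), 5 of 8 classical and lectin genes (C1ra, Mbl1, Mbl2, Masp1 and Masp2), Vtn, and of the clotting genes Klkb1, F10, F13b and Proc. For 30 of 38 genes every tumor lay below every adjacent library, which held for 19.5% of all genes. They include clotting genes that did not pass, such as F12, Kng1, F9, F7 and Plg. The split of the calls therefore does not show that clotting genes were spared. The summed hepatocyte markers were 71729 to 171229 CPM in these tumors and 127094 to 152241 CPM in adjacent tissue, with 0 of 8 markers called by edgeR, and their part in the result was not tested.

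C8b had 3.90, 0.104 and 2.72 CPM in Hdac3-/- tumors, against 82.6, 772 and 162 CPM in adjacent tissue (-7.21 ± 1.19, adjusted p = 0.00882). C8a had 13.02, 12.4 and 22.5 CPM in Hdac3-/- tumors, against 197, 717 and 411 CPM in adjacent tissue (-4.79 ± 0.71, adjusted p = 0.0061). Klkb1 had 5.29, 6.34 and 8.99 CPM in Hdac3-/- tumors, against 91.6, 124 and 109.9 CPM in adjacent tissue (-3.99 ± 0.47, adjusted p = 0.00276). None of the 3 genes overlapped between the groups, and adjacent replicate 2, the one with Y-linked transcripts, was the highest adjacent library for all 3. C6 fell to 12.2 ± 4.93 CPM in Hdac3-/- tumors, against 175 ± 224 CPM in adjacent tissue, where replicate 2 had 433 CPM (-3.83 ± 0.87, adjusted p = 0.025). C9 averaged 29.5 ± 20.2 CPM in Hdac3-/- tumors and 334 ± 157 CPM in adjacent tissue (-3.50 ± 0.65), C8g 49.0 ± 18.4 CPM in Hdac3-/- tumors and 277 ± 65.0 CPM in adjacent tissue (-2.50 ± 0.51).

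All 4 lectin pathway genes fell. Mbl1 averaged 35.8 ± 11.7 CPM in Hdac3-/- tumors and 170.2 ± 32.5 CPM in adjacent tissue (-2.25 ± 0.37), and Mbl2 40.9 ± 28.0 CPM in Hdac3-/- tumors and 355 ± 59.3 CPM in adjacent tissue (-3.12 ± 0.78). Masp1 averaged 13.8 ± 4.20 CPM in Hdac3-/- tumors and 56.2 ± 18.3 CPM in adjacent tissue (-2.04 ± 0.37), and Masp2 95.5 ± 26.5 CPM in Hdac3-/- tumors and 301 ± 42.9 CPM in adjacent tissue (-1.66 ± 0.32). C1ra averaged 152 ± 52.1 CPM in Hdac3-/- tumors and 530.3 ± 164 CPM in adjacent tissue (-1.80 ± 0.35), while C1s1, with a larger spread, had -2.40 ± 0.71, adjusted p = 0.0609. Vtn averaged 1071 ± 212 CPM in Hdac3-/- tumors and 4358 ± 1057 CPM in adjacent tissue (-2.03 ± 0.50). Of the clotting genes, F10 averaged 285 ± 66.2 CPM in Hdac3-/- tumors and 861 ± 100.4 CPM in adjacent tissue (-1.60 ± 0.34), F13b 24.5 ± 5.29 CPM in Hdac3-/- tumors and 120.3 ± 27.4 CPM in adjacent tissue (-2.30 ± 0.31) and Proc 153 ± 27.6 CPM in Hdac3-/- tumors and 633 ± 182 CPM in adjacent tissue (-2.05 ± 0.35).

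Fibrinogen and C3 were not among the losses. Fga had 5349.9, 11028 and 8016 CPM in Hdac3-/- tumors, against 5326, 6048 and 6149 CPM in adjacent tissue (0.47 ± 0.49, adjusted p = 0.571), Fgb 3424, 7544 and 4559.7 CPM in Hdac3-/- tumors against 3810.3, 4261 and 4883 CPM in adjacent tissue (0.26 ± 0.47, adjusted p = 0.766), and Fgg 2801, 5976 and 4159.8 CPM in Hdac3-/- tumors against 3122, 2930.3 and 3377 CPM in adjacent tissue (0.45 ± 0.47, adjusted p = 0.572). C3 had 11409, 17375 and 20652 CPM in Hdac3-/- tumors, against 21620.1, 10089 and 22805 CPM in adjacent tissue (-0.15 ± 0.51, adjusted p = 0.88). All 4 overlapped between the groups. Cpb2 had the highest value of the 38, 0.93 ± 0.42, adjusted p = 0.184, which did not pass. The count of 15 depended on the libraries: it was 9 without tumor replicate 1, 4 without tumor replicate 2, 9 without tumor replicate 3 and 9 without adjacent replicate 2. Without both libraries that carry Y-linked transcripts, which leaves 2 against 2, no gene of the whole table passed, all 15 stayed below 0 and their adjusted p-values were 0.0534 to 0.189.

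**Figure D5:**
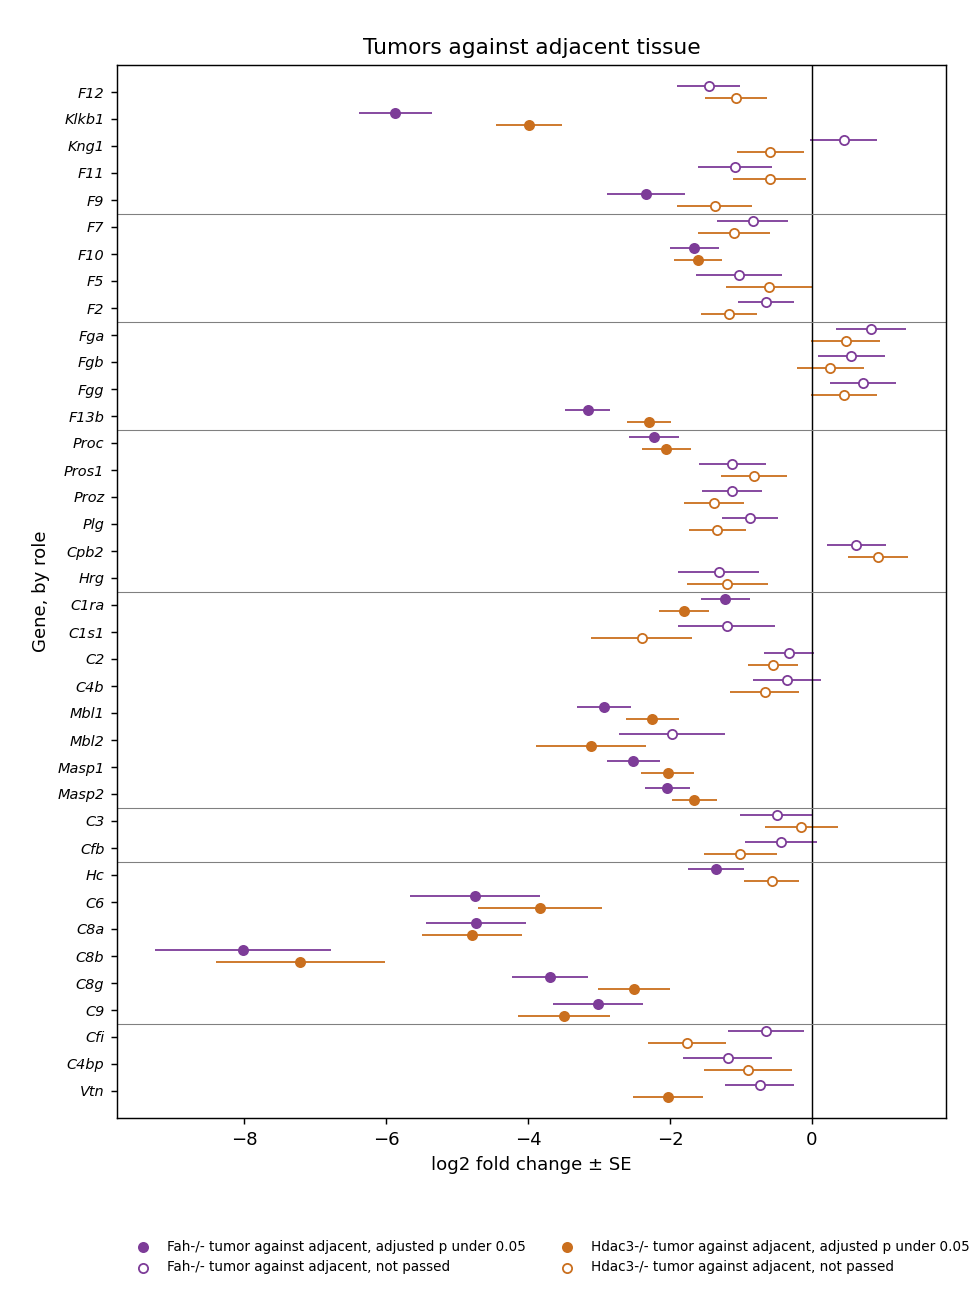
log2 fold change ± SE (x axis) of each gene (y axis, by role) in Fah-/- tumors and in Hdac3-/- tumors, each against adjacent tissue; filled points passed an adjusted p under 0.05. C8b is the lowest in both, at -8.02 and -7.21, Klkb1 lies next to the lowest terminal genes, and the 3 fibrinogen chains and Cpb2 lie right of 0.

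The tumors of Fah-/- recipients gave a like number of calls. Against adjacent tissue, labelled as another genotype and as 2 months younger, 15 of 38 genes fell and 23 did not pass (background 15.3% called, 8.19% higher and 7.08% lower), with a median of -1.19. The summed hepatocyte markers were 63567 to 111735 CPM in Fah-/- tumors and 127094 to 152241 CPM in adjacent tissue, with no overlap and 0 of 8 markers called by edgeR, and their part in the result was not tested. C8b had 1.15, 0.854 and 1.83 CPM in Fah-/- tumors, against 82.6, 772 and 162 CPM in adjacent tissue (-8.02 ± 1.25, adjusted p = 0.00526). Klkb1 had 1.46, 0.759 and 3.25 CPM in Fah-/- tumors, against 91.6, 124 and 109.9 CPM in adjacent tissue (-5.87 ± 0.52, adjusted p = 0.00148). C6 had 7.42, 6.17 and 5.91 CPM in Fah-/- tumors, against 55.0, 433 and 37.2 CPM in adjacent tissue (-4.75 ± 0.91, adjusted p = 0.011). Each of the 3 genes was lower in every Fah-/- tumor than in every adjacent library. All 6 terminal genes fell, with a median of -4.21; C8a averaged 16.6 ± 13.4 CPM (-4.74 ± 0.71), C8g 21.4 ± 14.4 CPM (-3.69 ± 0.53), C9 41.2 ± 23.8 CPM (-3.02 ± 0.64) and Hc 294 ± 77.7 CPM in Fah-/- tumors, against 750.3 ± 121 CPM of Hc in adjacent tissue (-1.35 ± 0.39). Hc did not pass when any one of the 6 libraries was left out (adjusted p 0.0638 to 0.131). Without the 2 older libraries with Y-linked transcripts, Hc (adjusted p = 0.103) and C9 (adjusted p = 0.0765) did not pass and C6 had -2.85.

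Of the other calls, F9 fell to 22.8 ± 14.7 CPM in Fah-/- tumors, against 115 ± 49.4 CPM in adjacent tissue (-2.34 ± 0.55), and F13b to 13.4 ± 3.68 CPM in Fah-/- tumors, against 120.3 ± 27.4 CPM in adjacent tissue (-3.16 ± 0.32). Proc, F10, C1ra, Mbl1, Masp1 and Masp2 had -2.23 ± 0.35, -1.66 ± 0.34, -1.22 ± 0.35, -2.93 ± 0.38, -2.52 ± 0.38 and -2.04 ± 0.32. C1ra did not pass when any one library was left out (adjusted p 0.0527 to 0.126), and F9 did not without adjacent replicate 1 (adjusted p = 0.0531) or 3 (adjusted p = 0.0791). Without the libraries with Y-linked transcripts C1ra (adjusted p = 0.184), F9 (adjusted p = 0.0526) and F10 (adjusted p = 0.0744) did not pass. Fga had 7767, 17244 and 6451 CPM in Fah-/- tumors (0.83 ± 0.49, adjusted p = 0.271), Fgb 5106, 10078 and 3998 CPM (0.55 ± 0.48, adjusted p = 0.452) and Fgg 3901, 8404 and 3339.6 CPM (0.72 ± 0.47, adjusted p = 0.32), with replicate 2 the highest for each chain. C3 had 18878, 10603 and 9478 CPM in Fah-/- tumors (-0.50 ± 0.51, adjusted p = 0.542). Both tumor comparisons share the adjacent libraries: 13 genes fell in both, Mbl2 and Vtn passed for Hdac3-/- tumors alone and F9 and Hc for Fah-/- tumors alone.

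Set directly against each other, Fah-/- tumors and Hdac3-/- tumors had 0 of 38 genes called by edgeR's quasi-likelihood test, with a background of 0.00% of genes called; 4 of the 38 had an unadjusted p under 0.05, DESeq2 called 1 and voom 0. The median log2 fold change was -0.09. The lowest value was that of Klkb1, with 1.46, 0.759 and 3.25 CPM in Fah-/- tumors and 5.29, 6.34 and 8.99 CPM in Hdac3-/- tumors (-1.89 ± 0.46, adjusted p = 0.671). The highest was that of Vtn, with 2666, 4116 and 1124 CPM in Fah-/- tumors and 1135, 834 and 1244 CPM in Hdac3-/- tumors (1.29 ± 0.49, adjusted p = 0.671). Fga, Fgb, Fgg and C3 had 0.36 ± 0.49, 0.30 ± 0.47, 0.27 ± 0.47 and -0.35 ± 0.51.

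The losses at 0d and in tumors rest on separate libraries and partly name the same genes. Of the 33 genes lower at 0d, 13 (39.4%) were also lower in Hdac3-/- tumors, and these 13 were 86.7% of the 15 lower there; C6 and Masp1 passed in these tumors and not at 0d. For Fah-/- tumors the shared number was 12 (36.4% of 33 and 80.0% of 15), and C6, Hc and Masp1 passed in these tumors and not at 0d. With 33 of 38 genes lower at 0d, most of any selection of the 38 would be shared. Fibrinogen was lower at 0d (-1.38 for Fgb) and had values above 0 in tumors (0.55 in Fah-/- tumors and 0.26 in Hdac3-/- tumors, neither passing), in separate comparisons whose difference was not tested.

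Genes around these cascades, taken from lists chosen with earlier results of these data known, moved less uniformly. Of 13 further complement components, 10 were tested and 2 fell at 0d against WT, where 19.0% of all genes were called lower and 18.3% higher. They were C1rl, a relative of C1r, by 0.87 ± 0.22 and Fcna, a ficolin, by 1.21 ± 0.44 on the log2 scale. C1qa, C1qb and C1qc, the recognition chains of C1 that macrophages make, were higher in 7d and 50d livers than in WT, with C1qc at 165 ± 35.8 CPM in 50d livers and 66.7 ± 24.9 CPM in WT livers (1.31 ± 0.33); the summed macrophage markers, which include these 3 genes, were 1349 to 1815 CPM in 50d livers and 427 to 923 CPM in WT livers. Of 13 complement regulators and receptors, 12 were tested, 3 rose and 5 fell at 0d, against the same 18.3% and 19.0% of all genes. The receptors C3ar1 and C5ar1, for the fragments C3a and C5a, were among those that rose, by 2.39 ± 0.33 and 2.38 ± 0.44.

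Of 14 further clotting and fibrinolysis genes, 6 rose and 3 fell at 0d, and the share that fell is near the 19.0% of all genes called lower (18.3% were called higher). Plau, the gene of urokinase, a plasminogen activator, averaged 6.86 ± 0.696 CPM in 0d livers and 1.56 ± 0.478 CPM in WT livers (2.12 ± 0.35), and F13a1, the catalytic subunit of factor XIII, averaged 3.96 ± 1.71 CPM in 0d livers and 0.110 ± 0.114 CPM in WT livers (5.05 ± 1.05). Habp2, a protease that can activate factor VII, fell by 1.92 ± 0.31. In tumors, Plau and Thbd, the gene of thrombomodulin, rose by 2.32 ± 0.48 and 2.70 ± 0.63 in Hdac3-/- tumors over adjacent tissue, and Thbd and Plaur, the urokinase receptor, by 4.02 ± 0.65 and 4.86 ± 0.89 in Fah-/- tumors. Thus the carrier subunit F13b and the catalytic subunit F13a1 moved in opposite directions at 0d. At 0d the summed stellate and matrix markers were 512 to 915 CPM, against 139 to 171 CPM in WT livers (6 of 8 higher), the summed bile duct markers 384 to 633 CPM, against 36.7 to 55.7 CPM (6 of 6 higher), and the summed macrophage markers 915 to 957 CPM, against 427 to 923 CPM (3 of 11 higher, 2 lower); their part in these rises was not tested.

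Of 8 genes of the vitamin K cycle and of factor secretion, 1 fell and 1 rose at 0d, a share no higher than the 19.0% of all genes called lower and 18.3% called higher. Vkorc1, the reductase that warfarin blocks, averaged 65.3 ± 7.34 CPM in 0d livers and 151 ± 45.1 CPM in WT livers (-1.20 ± 0.19), and Nqo1, a quinone reductase, rose by 1.90 ± 0.59. Of 12 transcription factors of hepatocytes, 3 fell at 0d, also near that 19.0%, among them Foxa3 by 1.24 ± 0.29 and Nr1h4, the bile acid receptor, by 0.94 ± 0.28. Of 17 acute phase genes, 10 fell and 1 rose at 0d, with a median of -1.96, and 15 rose in 7d over 0d livers (14.7% of all genes did), with a median of 2.00. Apcs, serum amyloid P, fell by 2.93 ± 0.55 at 0d and rose by 3.71 ± 0.56 at 7d, and Orm1, an acid glycoprotein, rose by 3.12 ± 0.46 at 7d. In Hdac3-/- tumors 1 of the 17 acute phase genes fell against adjacent tissue (4.98% of all genes did), and in Fah-/- tumors 1 did (7.08%).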

How the data were processed

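Liver RNA of 26 mouse samples was sequenced. The deposited tables give an expected count per gene, an estimate of reads that need not be whole (20.1 to 21.8% of values were not), and FPKM, which divides by gene length and by library size, per the file headers. HISAT, Bowtie2 and mm10 are named in the submitters' processing notes with no version or role, while the counting tool was not stated in the labels or headers. A gene not listed in a library was taken as 0.

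Of 19638 gene IDs, 19573 matched GRCm38.p6 by Entrez ID, 11 by accession and 54 not. Expected counts were rounded and tested with edgeR 4.0.16 (R 4.3.3): filterByExpr, TMM, quasi-likelihood F-test, 2-sided, Benjamini-Hochberg over all genes, threshold 0.05. The 17 young libraries were fitted together (13617 genes) and the 9 older ones together (13187 genes). Printed levels are CPM, counts over the library total as scaled by TMM over all 26 libraries, as mean ± SD over libraries (n = 3, or 4 for 7d and 21d); log2 fold changes are given ± SE. FPKM was used to compare levels between genes. The scripts were tested on simulated data. Between replicates of a group, chi-square divided by its degrees of freedom was 7.67 to 292. Equal replicate numbers showed no pairing of samples (correlation of deviations -0.21 to 0.28). This does not show whether tumor and adjacent libraries came from the same mice under other numbers, and the tests treat them as unpaired.

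Members and lists were chosen with earlier results of these data known. Named in full per comparison were up to 3 called genes with the largest and 3 with the smallest log2 fold change and at least 5 CPM in the higher group, C3 and fibrinogen. Of other lists the text names called genes among the 3 with the smallest adjusted p. Alternatives used DESeq2 1.42.0, limma 3.58.1 (voom; trend on log2(FPKM + 1) and log2(FPKM + 0.1)), other scalings, filters and sample sets, and libraries left out. A few genes of these lists are counted but not reported here by name.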

Additional observations from a re-analysis of the deposited data

Results flagged for a closer look

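In groups of 4 libraries (7d and 21d), 76 combinations of gene and group were checked for 1 library far from the other 3 by Dixon's test, which chance alone flags in about 1 of 20. Both flags fell on 21d replicate 3. It held 39.9 CPM of Klkb1, the lowest of the 21d livers, and 134 CPM of Masp2, also the lowest.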

How the results depend on the processing

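Of 2913 recomputed values of single called genes, 2684 kept their call and 229 fell short of the threshold, with no change of sign. The number of the 38 genes called moved by over 1.5 times in 4 comparisons. In 7d against WT livers it was 1, and 2 by DESeq2, by library totals, on log2(FPKM + 1), on log2(FPKM + 0.1) and without 7d replicates 3 and 4 (chosen after seeing the data), and 5 by voom. In 50d against WT livers it was 1, and 2 by DESeq2 and by library totals, 3 on both FPKM scales, 4 by voom and 5 with only those groups fitted. In Hdac3-/- tumors against adjacent tissue it was 15, and 24 (1 higher) with all 26 libraries in 1 fit, 23 with only those groups and 0 without the libraries with Y-linked transcripts (chosen after seeing the data). Between Fah-/- and Hdac3-/- tumors it was 0, and 1 by DESeq2. The cause of these moves was not tested.

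With 1 library left out at a time the count was 28 to 34 for 0d against WT, 26 to 33 for 7d, 22 to 32 for 21d and 29 to 31 for 50d against 0d, 1 to 9 for 7d against WT, 1 for 50d against WT and 0 for 50d against 7d. For tumors it was 4 to 13 for Hdac3-/- tumors against adjacent tissue, 0 between the tumors and 12 to 16 for Fah-/- tumors against adjacent tissue. A lone or reduced group is assumed to vary like the others. The equal replicate numbers showed no pairing; with the replicate number as a block the counts were 32 for 0d against WT, 33, 30 and 33 for 7d, 21d and 50d against 0d, 1 and 1 for 7d and 50d against WT, 0 for 50d against 7d, and 12, 0 and 13 for Hdac3-/- tumors against adjacent tissue, Fah-/- against Hdac3-/- tumors and Fah-/- tumors against adjacent tissue.

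With levels scaled by library totals, the middle log2 value over the whole table stood at 0.299 for 0d against WT. It stood at -0.128, -0.207 and -0.172 for 7d, 21d and 50d against 0d, and at 0.121 and 0.108 for 7d and 50d against WT. For Hdac3-/- and Fah-/- tumors against adjacent tissue it stood at 0.202 and 0.257. The share of calls that were higher over all genes then was 69.7% in place of 49.0% for 0d against WT, 38.0% in place of 55.3%, 35.1% in place of 55.6% and 39.2% in place of 55.7% for 7d, 21d and 50d against 0d, 65.2% in place of 51.5% for Hdac3-/- tumors and 70.5% in place of 53.6% for Fah-/- tumors, while 32 of the 38 genes were lower at 0d and 14 and 13 in the tumors. Counting error limits C8b, at a few CPM in 0d livers and tumors, more than the abundant genes.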

Other observations

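C1rb and C1s2, the near-identical copies of C1ra and C1s1, were listed at 0 to 39.1 CPM and 0 to 33.8 CPM among the 3 WT livers, and at no more than 0.711 and 1.04 CPM in any of the other libraries. C4a, the copy of C4b, ranged from 45.4 to 50.9 CPM among 0d livers, from 12.2 to 281 CPM among WT livers and from 97.2 to 528 CPM in adjacent tissue.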
